A study of Mus musculus with 72 samples.

Results

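The genes of translation initiation and elongation are described here in mouse embryonic stem cells. They were chosen by symbol (Eif or Eef followed by a digit), as protein-coding genes with a mean of at least 400 exonic T positions read in whole-cell libraries. Of 68 genes that matched the symbol rule, 65 passed the minimum, among 12793 protein-coding genes that passed it. Eef1a2, Eif4e1b and Eef1akmt4 fell under the minimum. The 65 genes comprise 11 Eef genes and 14 Eif3 genes, 25 genes in all, and 40 other Eif genes.

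Every group used E14TG2a, 1 line of mouse embryonic stem cells, grown on gelatin with LIF and kinase inhibitors. Cells received 4-thiouridine (4sU), a uridine analog that enters new RNA and is read as T-to-C (T2C) conversions after alkylation. Poly(A)-selected, stranded libraries were made from nucleus, cytosol, membrane fraction and whole cells after 15, 20, 30, 40, 60 or 120 min of labeling. The cytosolic, membrane and nuclear fractions were extracted one after another from the same culture, and 64 libraries, 16 per fraction, were used. Replicates 1 and 2 covered 15, 20 and 30 min, replicates 3 and 4 covered 20, 40 and 60 min, and replicates 5 and 6 covered 60 and 120 min. The labels give 500 µM 4sU for labeling shorter than 60 min and 100 µM for 60 and 120 min, while the methods of the study give 60 min at both doses. The conversion rate, the chance that a T in new RNA is read as C, was 5.83% to 8.29% at 60 min in replicates 3 and 4 and 2.38% to 3.99% in replicates 5 and 6. Dose was therefore not used as a group.

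Initiation factors bring the initiator tRNA, the small ribosomal subunit and the capped mRNA together and find the start codon. Elongation factors then deliver aminoacyl-tRNA and move the ribosome along the mRNA. The mRNAs of many elongation factors and of several Eif3 subunits belong to the terminal oligopyrimidine (TOP) class, whose 5′ ends carry a run of pyrimidines and whose translation responds to mTOR.

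The bases around the annotated start are shown for genes whose shares of new RNA lay far from the median gene (Eif3k and Eif4a2). They are also shown for an Eif3 gene that was scarce in the nucleus (Eif3f) and for the Eif4a1 paralog. Each sequence is read on the coding strand from RefSeq on GRCm38.p6, from 5 bases before the annotated start to 25 bases from it, with the longest run of C or T in capitals.
Eif3f: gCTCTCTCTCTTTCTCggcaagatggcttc
Eif3k: gcgctggtgctgaaagcgCCTTTCCCTTTg
Eif4a1: gTCacgtcgagttgcagagcgccggcaggc
Eif4a2: CCCgtaggagcagggcggccgaggagcgcg
These windows lie at chr7:108934410-108934439 on the plus strand for Eif3f, at chr7:28981864-28981893 on the minus strand for Eif3k, at chr11:69672399-69672428 on the minus strand for Eif4a1, and at chr16:23107463-23107492 on the plus strand for Eif4a2. The table of starts held 50 of the 65 genes, and 37 of these starts lay within 50 bases of the start in the annotation used for counting. A run of at least 7 letters that are each C or T, searched on the coding strand alone, stood in the window of 13 of the 50 genes (26.0%). It stood in 6 of 17 Eef and Eif3 genes (35.3%), in 7 of 33 other Eif genes (21.2%) and in 15.6% of 16522 protein-coding genes. Eif3f and Eif3k, shown above, held the longest runs of the 17 Eef and Eif3 genes, at 15 and 11 letters. The longest run was 2 letters in Eif3a and 3 in Eif3c and Eif3d. Among other Eif genes it reached 16 in Eif2s3x and 12 in Eif2s3y, so the windows shown do not represent the 2 sets. The match is a description of these letters and not a mapped start site. In the windows shown, the capitals of Eif3f run across the annotated start and those of Eif3k lie after it. Those of Eif4a1 and Eif4a2 lie wholly before it. A run in the window thus need not stand at the 5′ end of the mRNA.

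Libraries held 13185351 to 52975732 reads in genes, with a median of 21494524.5. The 8 pluripotency markers summed to a median of 5649 CPM in whole cells, against 13.0 for 7 germ-layer markers and 12.4 for 6 feeder markers, of which Lum was at 0 throughout. The 8 marker mRNAs translated at the endoplasmic reticulum summed to 11031 CPM in the membrane fraction and 616 in the cytosol, and the 5 nuclear RNAs to 1711 in the nucleus and 366 in the cytosol. Nuclear libraries of replicate 3 stood apart, since their deviations from the group mean correlated with those of the cytosol at 0.0966 against 0.343 to 0.571 in the other replicates, and the whole-cell library of replicate 6 at 60 min had a median share of new RNA of 0.374 against 0.175 in the same replicate at 120 min. In replicate 5 the medians were 0.220 at 60 min and 0.388 at 120 min, and whether the labels of the 2 libraries of replicate 6 were exchanged was not tested.

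The transcript levels of these genes spanned a wide range in whole cells. Levels are TPM values computed from the deposited counts and exon lengths, given as the lowest, median and highest of 16 libraries. Eef1a1, which delivers aminoacyl-tRNA to the ribosome, ranked first of the 65 genes with 4145, 9649 and 13171. Eef2, the translocation factor, came next with 859, 1632 and 2155, and the 2 ranges did not overlap. Eef1g and Eef1b2, subunits of the exchange factor that recharges eEF1A, had medians of 1403 and 1171, and the hypusinated factor Eif5a and the cap-complex helicase Eif4a1 had medians of 1254 and 1146. The ranges of Eef2, Eef1g, Eif5a, Eef1b2 and Eif4a1 overlapped, and their order within each library was not tested. At the lower end stood Eif4e3, a relative of the cap-binding protein, with a median of 0.511, and Eef1akmt3, a lysine methyltransferase of eEF1A, with 1.00. Kinases of the pathway were scarce, with medians of 33.3 for Eif2ak1, 26.1 for Eif2ak2, 25.5 for Eif2ak3, 13.4 for Eif2ak4 and 6.71 for Eef2k. Levels of Eif2s3x, Eif3j1, Eif3j2, Eif4e and Eif4e3 are uncertain, since T positions per counted read lay outside the 5th to 95th percentile of genes there (144, 103, 66.6, 18.1 and 47.5 against 20.0 to 46.2), and the part of reads shared with similar copies was not tested.

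The first comparison asked where the mRNAs of these factors resided. Relative to cytosol, 46 of the 65 genes were lower in the nucleus, 6 were higher and 13 did not pass the test (edgeR's quasi-likelihood test, adjusted p under 0.05 and a log2 ratio beyond 0.5), where 65.6% of 15576 genes passed in either direction, 34.2% higher and 31.4% lower. The median log2 ratio was -0.96 over the 65 genes and -0.02 over all genes tested. Without replicate 3 there were 44 lower and 7 higher. The level fit took the 16 libraries per fraction, from 6 replicates, as independent, so its SEs and p values may be too small. With counts summed within a replicate, 39 of the 65 genes were lower and 7 higher (18.9% and 37.5% of all genes). The median over all genes was then 0.25, and that of the 65 genes -0.69. Each fraction is scaled to its own total, so that fewer molecules and a smaller part of the RNA cannot be told apart.

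Among elongation factors all 6 of the Eef1 and Eef2 group were lower in the nucleus, with a median log2 ratio of -1.57. Eef1d, a subunit of the eEF1A exchange factor, had levels of 46.7, 67.6 and 99.3 (lowest, median, highest) in the nucleus and 173, 235 and 313 in the cytosol. The lowest cytosolic library thus stood above the highest nuclear one, and the fitted level was 4.95-fold lower in the nucleus (log2 ratio -2.31, SE 0.11, adjusted p = 8.14e-24 by edgeR's quasi-likelihood test). Eef1a1 ran from 4018 through 6826 to 9442 in the nucleus and from 13007 through 18617 to 20937 in the cytosol, again without overlap, and was 3.51-fold lower (log2 ratio -1.81, SE 0.12). Eef2 showed a smaller ratio of -0.65 (SE 0.11), and its levels of 1214, 1800 and 2977 in the nucleus overlapped the 1234, 2247 and 3229 of the cytosol. Its call was lost without replicate 1, 2 or 5, and within replicates 3 and 4 the log2 ratio turned to 0.25 without passing the test.

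Of the 14 Eif3 subunits, which form the scaffold on the small ribosomal subunit, 11 were lower in the nucleus and 1 was higher, at a median log2 ratio of -1.15. Eif3f had the lowest ratio at -1.81 (SE 0.11), and Eif3i, Eif3g, Eif3h and Eif3k lay between -1.39 and -1.26. Eif3a was the subunit that was higher in the nucleus, at 0.55 (SE 0.11), and its call was lost without replicate 4 and within replicates 1 and 2. Eif3c had 0.16 (SE 0.15) and Eif3d -0.40 (SE 0.16), and neither passed. The call of Eif3b at -0.68 was lost without replicate 1, 2 or 5, and its ratio was 0.039 within replicates 3 and 4. Start codon and tRNA factors were lower in 10 of 13 cases, led by Eif2s2, the beta subunit of eIF2, at -1.79 (SE 0.24), and 4 of the 5 subunits of eIF2B, the exchange factor of eIF2, were lower at a median of -0.73.

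Of the 11 cap and helicase factors 3 were higher in the nucleus and 7 were lower, and of the 8 eIF2 kinases and eIF4E binders 2 were higher and 3 were lower. Both large scaffold proteins of the cap complex were among the higher ones, Eif4g1 at a log2 ratio of 1.63 (SE 0.14) and Eif4g3 at 1.64 (SE 0.12). Eif4g1 levels were 248, 478 and 1157 in the nucleus and 86.4, 150 and 175 in the cytosol, so that no cytosolic library reached the lowest nuclear one. Eif4a2, a helicase of the cap complex, was 2.60-fold higher in the nucleus (log2 ratio 1.38, SE 0.16), while its paralogs Eif4a1 and Eif4a3, the latter a part of the exon junction complex, were lower at -0.96 (SE 0.15) and -0.95 (SE 0.14), with the call of Eif4a1 lost within replicates 1 and 2 and within replicates 5 and 6. Nuclear libraries of Eif4a2 ranged widely, at 170, 798 and 1373, and overlapped the 128, 178 and 238 of the cytosol. Eif2ak3, the eIF2 kinase of the endoplasmic reticulum membrane known as PERK, was 4.32-fold higher (log2 ratio 2.11, SE 0.21), and Eif4ebp3, a binder of eIF4E, had 0.77 (SE 0.12), a call that was lost within replicates 1 and 2 and within replicates 5 and 6.

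The direction of these counts held under other scalings, but their size depended on it. With library totals in place of TMM the median of all genes moved from -0.02 to 0.29, the called genes split 6603 higher against 3158 lower in place of 5326 against 4886, and 36 of the 65 genes were lower and 8 higher. The median of the 65 genes stood 0.95 below that of all genes with TMM (-0.95) and 0.90 below it with library totals (-0.90). This distance ran from -1.51 within replicates 3 and 4 to -0.53 within replicates 5 and 6 over the alternatives run. With TMM but without replicate 1, 2 or 5, or with all 72 libraries, the median of all genes lay between 0.26 and 0.29, with 37 or 38 of the 65 genes lower and 8 higher.

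Membrane and cytosol differed less. Relative to cytosol, 20 of the 65 genes were lower in the membrane fraction, 4 were higher and 41 did not pass, against 36.8% of all genes called either way, 24.2% higher and 12.6% lower. The median log2 ratio was -0.36 over the 65 genes and -0.16 over all genes, and the 4 genes higher at membranes were Eif2ak3, Eif4g1, Eif2ak1 and Eef2k. Eif2ak3 encodes a membrane protein, and its levels were 0.876, 3.23 and 7.99 in the cytosol and 15.9, 29.4 and 46.8 in the membrane fraction. All 16 membrane libraries were above all 16 cytosolic ones, and Eif2ak3 was 12.2-fold higher at membranes (log2 ratio 3.61, SE 0.22, adjusted p = 1.27e-20 by edgeR's quasi-likelihood test), with log2 ratios of 3.17 to 4.27 over the 15 alternatives run.

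The soluble kinases did not share this size of difference. Eif2ak1, the heme-regulated eIF2 kinase, had a log2 ratio of 0.62 (SE 0.07), Eif2ak2, the kinase activated by double-stranded RNA, had -0.73 (SE 0.12) and was lower, and Eif2ak4, which responds to uncharged tRNA, had -0.46 (SE 0.06) and did not pass. The lowest ratios belonged to Eif2s3x, the gamma subunit of eIF2, at -0.99 (SE 0.12), and to Eef1a1 at -0.77 (SE 0.11). The ratio of Eif2s3x is uncertain, since it rests on counts with 144 T positions per counted read. With library totals in place of TMM the median of all genes moved from -0.16 to -0.48, called genes split 3272 higher against 7234 lower in place of 3769 against 1958, and 47 of the 65 genes were lower, while Eif2ak3 alone was still called higher. The call of Eif4g1 was also lost within replicates 5 and 6, at 0.27. Within replicates 1 and 2 there were 6 genes lower (8.74% of all genes), and 12 without replicate 3 (9.77% of all genes). With counts summed within a replicate there were 15 lower and 3 higher (9.12% and 21.1% of all genes).

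**Figure D1:**
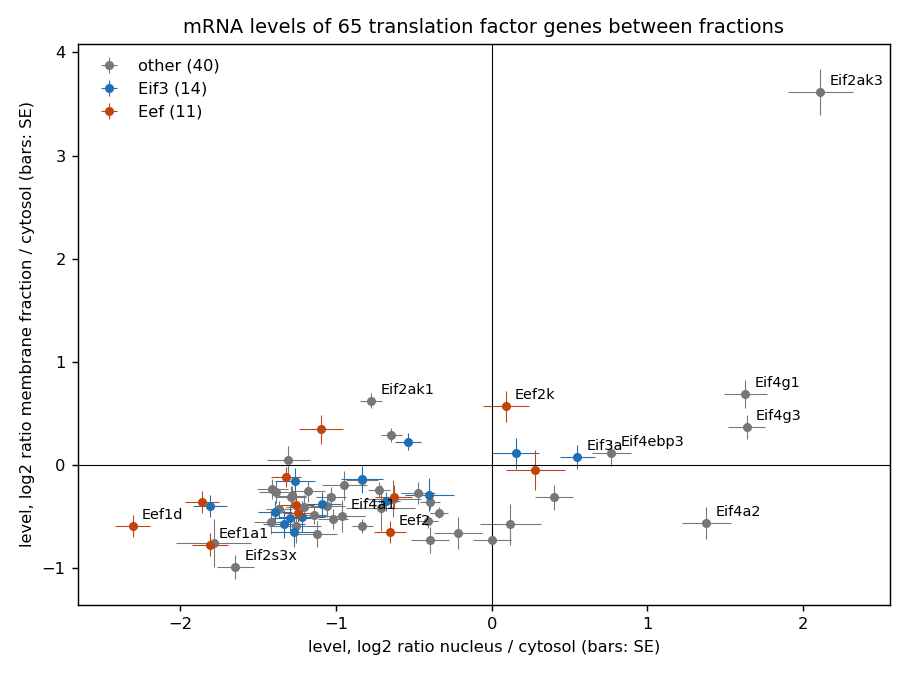
Log2 ratio of the level in nucleus over cytosol (horizontal axis) against that in membrane fraction over cytosol (vertical axis) for the 65 genes, with Eef, Eif3 and other Eif genes in different colors and bars for the SE. Most genes lie left of 0, and Eif2ak3 stands alone at the top right with 2.11 and 3.61.

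The share of new RNA is the part of a pool of mRNA that was made during labeling. In the model of the study, mRNA reaches cytosol and membranes from the nucleus. Shares there thus also depend on how new the nuclear mRNA is, and do not alone tell how quickly those pools are replaced. It was computed per gene and library as T2C counts over T counts times the conversion rate, so that 1 stands for fully new RNA and values slightly above 1 can occur. No background conversion was subtracted, and values near 0.01 at 15 min may hold sequencing errors, whose part was not tested. Medians over 63 genes with at least 400 T positions in all 64 libraries (24 Eef and Eif3 genes, 39 other Eif genes) are set beside those of 11575 genes.

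In whole cells, the median share of Eef and Eif3 genes was 0.0124 to 0.0150 at 15 min, 0.0486 to 0.140 at 60 min and 0.0652 to 0.139 at 120 min, and without replicate 6 it was 0.0486 to 0.0787 at 60 min and 0.139 at 120 min. For the other Eif genes it was 0.0184 to 0.0250, 0.0784 to 0.241 and 0.115 to 0.262 at the same times, and for all genes it was 0.0191 to 0.0247, 0.112 to 0.374 and 0.175 to 0.388. Eef and Eif3 genes thus lay lowest in each of these libraries. In the cytosol, the 4 libraries at 60 min had 0.0327 to 0.0732 for Eef and Eif3 genes, 0.0590 to 0.127 for the other Eif genes and 0.0924 to 0.206 for all genes. The median of Eef and Eif3 genes was below that of the other Eif genes in 64 of 64 libraries, and below that of all genes in 16 of 16 libraries of each fraction. The ratio of the first to the second had a median over libraries of 0.596 for the nucleus, 0.585 for cytosol, 0.609 for membranes and 0.600 for whole cells. The other Eif genes were below all genes in 16 of 16 cytosolic, 15 of 16 membrane, 11 of 16 nuclear and 11 of 16 whole-cell libraries. Genes are not replicates, and libraries of one culture share it, so these counts carry no test. Eef and Eif3 genes also had shorter gene spans, with a median of 14.9 kb against 19.3 kb in the other Eif genes and 21.5 kb in all genes of the fit, and the part of span in these shares was not tested.

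**Figure D2:**
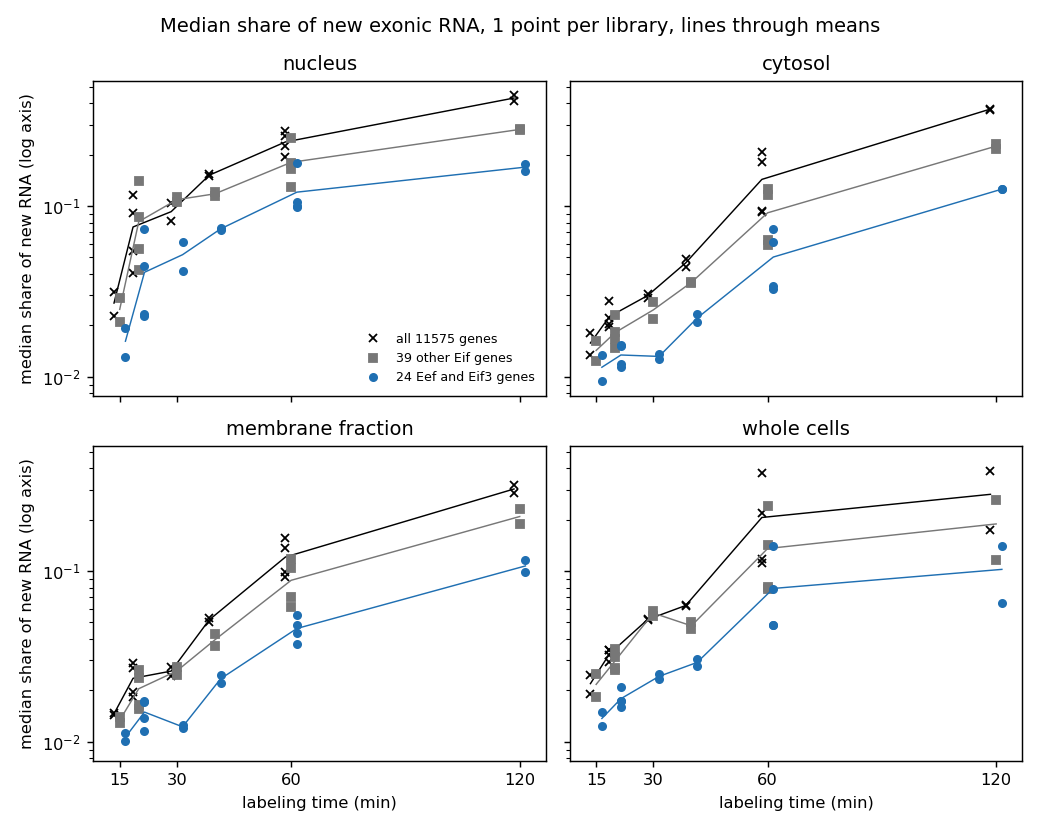
Median share of new exonic RNA (log axis) over labeling time in minutes for 24 Eef and Eif3 genes, 39 other Eif genes and 11575 genes, in 1 panel per fraction, with a point per library and lines through the means. Eef and Eif3 genes lie below the other Eif genes in 64 of 64 libraries.

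At 60 min, where 4 replicates exist, each gene was tested against the median gene of its library in a fit over 12230 genes that held 63 of the 65 (Eef1akmt3 and Eif4e3 had too few T positions). In whole cells 41 of the 63 were lower than the median gene and 4 were higher, against 58.3% of all genes called either way, 30.6% higher and 27.7% lower. Their median log2 ratio was -0.76, and that of all genes 0.02. Without replicate 6 there were 42 lower and 4 higher. Eef and Eif3 genes were lower in 20 of 24 cases with none higher and a median of -1.41, and the other Eif genes in 21 of 39 with 4 higher and a median of -0.62.

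Of the 14 Eif3 subunits 13 were lower in whole cells. Eif3k, a small subunit of the complex, had shares of 0.0295, 0.0295, 0.0509 and 0.0787 in replicates 3 to 6, where the library medians were 0.112, 0.118, 0.220 and 0.374. Every replicate lay far below its library median, and the log2 ratio was -2.07 (SE 0.16, adjusted p = 8.73e-12 by edgeR's quasi-likelihood test), or 4.20-fold lower. Eif3m, Eif3h, Eif3i and Eif3e followed at -1.99, -1.95, -1.90 and -1.82, and Eif3a, the subunit that did not pass, had 0.12 (SE 0.10). Eif3a had the highest share of the 14 subunits in 13 of 16 nuclear, 15 of 16 cytosolic, 11 of 16 membrane and 15 of 16 whole-cell libraries.

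Elongation factors gave similar values. Eef1a1 had shares of 0.0454, 0.0404, 0.0594 and 0.0939 in whole cells, below the library median in every replicate, and a log2 ratio of -1.66 (SE 0.19). Eef1d, Eef1g and Eef1b2, its exchange factor subunits, had -1.76, -1.70 and -1.59, and Eef2 had -0.92 (SE 0.17). Eef1e1, which is also a part of the multi-tRNA synthetase complex, had 0.19 (SE 0.11) and was the gene of this group of 6 that did not pass. Enzymes that modify elongation factors varied, from -1.54 for Eef1akmt1, a methyltransferase of eEF1A, to 0.08 for Eef1akmt2, which did not pass.

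Among the other Eif genes, 8 of 13 start codon and tRNA factors, 6 of 10 cap and helicase factors and 3 of 5 Eif2b subunits were lower. Eif5a had -1.64 (SE 0.15). Eif2s3y, the Y-linked paralog of the eIF2 gamma subunit, had -2.18 (SE 0.45) on low counts. The 4 genes that were higher than the median gene were Eif4a2 at 2.14 (SE 0.12), Eif4ebp3 at 0.86 (SE 0.20), Eif2ak3 at 0.83 (SE 0.10) and Eif1a, a scanning factor, at 0.65 (SE 0.10). Eif4ebp3 shares in whole cells were 0.283, 0.155, 0.409 and 0.603, above the library median in each replicate. At 20 min the whole-cell ratios of Eif4ebp3 (-0.45), Eif2ak3 (0.47), Eef1a1 (-0.35), Eef2 (-0.22), Eif4a1 (-0.35) and Eif5a (-0.19) did not pass.

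Values were also read by complex, without a test between subunits. Of the eIF2 trimer, Eif2s1 (alpha), Eif2s2 (beta) and Eif2s3x (gamma) had whole-cell ratios of -0.97, -0.92 and -1.26, with SEs of 0.12, 0.14 and 0.12. The part of reads that Eif2s3x shares with similar copies was not tested for this ratio either. In its exchange factor eIF2B the ratios ran from -1.09 (SE 0.11) for Eif2b5, the catalytic subunit, over -0.69 for Eif2b4 and -0.65 for Eif2b3 to -0.12 for Eif2b2 and -0.04 for Eif2b1, and the last 2 did not pass. Eif2b5 shares were 0.0553, 0.0612, 0.109 and 0.143 and Eif2b1 shares 0.143, 0.116, 0.199 and 0.275 in replicates 3 to 6. Eif2b1 was above Eif2b5 in each replicate. In the cap complex Eif4g1 had -1.26 (SE 0.13), the cap-binding protein Eif4e -0.39 (SE 0.12) and the helicase partner Eif4b -0.08 (SE 0.14), of which Eif4g1 passed. Among binders of eIF4E, Eif4ebp1 was lower at -0.68 (SE 0.13) and Eif4ebp2 did not pass at -0.46 (SE 0.12). Of the eIF2 kinases Eif2ak4 was lower at -0.76 (SE 0.19), a call lost within replicates 5 and 6, and Eif2ak1 at -0.50 (SE 0.14) and Eif2ak2 at -0.35 (SE 0.21) did not pass.

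**Figure D3:**
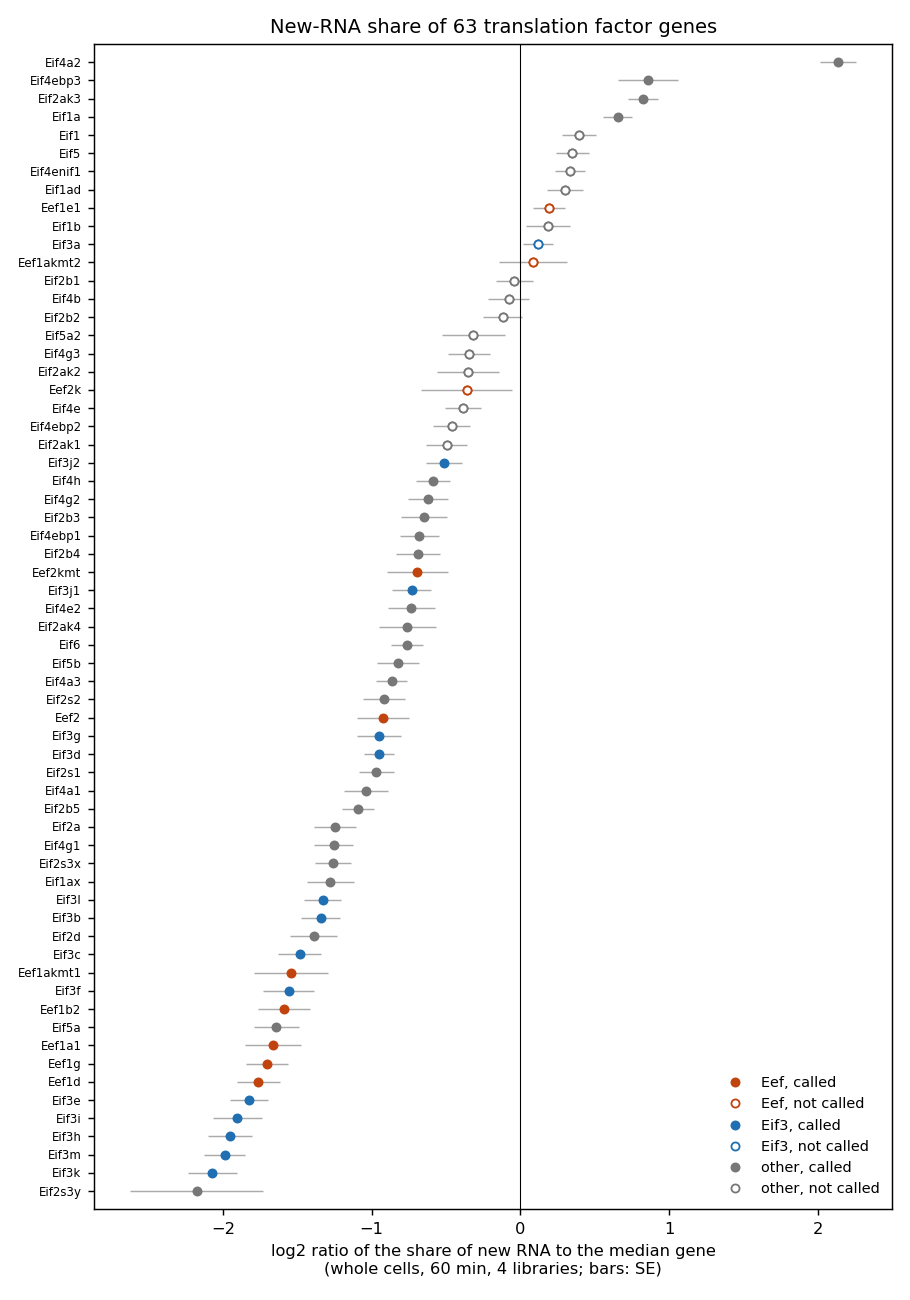
Log2 ratio of the share of new RNA to the median gene in whole cells at 60 min for 63 genes in order. Eef, Eif3 and other Eif genes have different colors, and open points mark genes that did not pass the test. Bars give the SE from the joint fit of nucleus, cytosol, membrane fraction and whole cells at 60 min. Eif2s3y and Eif3k lie lowest at -2.18 and -2.07, and Eif4a2 stands apart at 2.14.

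The other fractions gave the same order of groups. In the cytosol 43 of 63 genes were lower than the median gene and 6 were higher (67.8% of all genes called either way, 35.9% higher and 31.9% lower), with medians of -1.35 for Eef and Eif3 genes and -0.66 for the other Eif genes. At membranes 37 were lower and 6 higher (67.0%, 35.6% and 31.4% of all genes), with medians of -1.35 and -0.48, and in the nucleus 36 were lower and 3 higher (50.1%, 25.4% and 24.7%), with medians of -1.05 and -0.44. Without replicate 3 the nuclear count was 41 lower and 3 higher. The nuclear pattern was that of 60 min: at 20 min 25 genes were lower and 11 higher (20.2% and 28.4% of all genes), and Eef1a1, Eef1b2, Eif4a1 and Eif5a had log2 ratios of 0.28, 0.13, 0.062 and 0.32 there.

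Some genes changed rank between fractions. Eif4g1 had the lowest nuclear ratio, at -1.85 (SE 0.14), with shares of 0.107, 0.0465, 0.0643 and 0.0522 in replicates 3 to 6, and was at -0.95 (SE 0.13) in the cytosol. Eif2ak3 was at 0.73 (SE 0.10) in the nucleus, 1.03 (SE 0.10) at membranes and 2.29 (SE 0.11) in the cytosol. Eif3a was at -0.22 (SE 0.10) in the nucleus without passing and at 0.56 (SE 0.10) in the cytosol, where its call was lost without replicate 3, at 0.46, and within replicates 5 and 6, at 0.38. Eif2d, which can deliver tRNA outside the eIF2 pathway, was at -2.28 (SE 0.17) in the cytosol and -1.01 (SE 0.15) in the nucleus.

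Paralogs with closely related proteins differed in how new their mRNA was. In whole cells at 60 min, Eif4a2 had shares of 0.700, 0.624, 0.844 and 0.863 and Eif4a1 0.0644, 0.0593, 0.0961 and 0.165 in replicates 3 to 6. The lowest Eif4a2 share was above the highest Eif4a1 share. Over all labeling times Eif4a2 was above Eif4a1 in 16 of 16 libraries of each fraction, with median ratios of 6.17 in the nucleus, 9.43 in the cytosol, 10.0 at membranes and 10.8 in whole cells. Eif4a2 was also above Eif4a3 in 16 of 16 libraries of each fraction.

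The scanning factor pair Eif1a and Eif1ax also differed, with Eif1a above Eif1ax in 16 of 16 libraries of each fraction and median ratios of 2.90 to 3.54. Eif5a2 was above Eif5a in 15 of 16 cytosolic and 15 of 16 membrane libraries, at median ratios of 3.46 and 3.80, and in 9 of 16 nuclear libraries at a median ratio of 1.04. Eif4g3 was above Eif4g1 in 16 of 16 nuclear libraries but in 9 of 16 cytosolic ones. Eif2ak3 was above Eif2ak1 in 16 of 16 nuclear and whole-cell libraries, 15 of 16 cytosolic and 14 of 16 membrane libraries.

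The course over labeling time showed the same contrast. Cytosolic shares of Eef1a1 were 0.0127 and 0.00938 at 15 min, 0.0201 and 0.0152 at 30 min, 0.0298 and 0.0245 at 40 min and 0.0913 and 0.0868 at 120 min. Cytosolic shares of Eif4a2 were 0.0521 and 0.0397, 0.264 and 0.252, 0.364 and 0.373, and 0.915 and 0.967 at the same times. After 120 min the cytosolic pool of Eif4a2 was thus nearly all new, and that of Eef1a1 mostly older. Cytosolic Eif2ak3 reached 0.980 and 0.933 at 120 min, and Eif3k 0.0701 and 0.0645. In whole cells at 120 min replicate 6 was low for these genes, with 0.0463 for Eef1a1 against 0.0999 in replicate 5 and 0.326 for Eif2ak3 against 0.751.

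**Figure D4:**
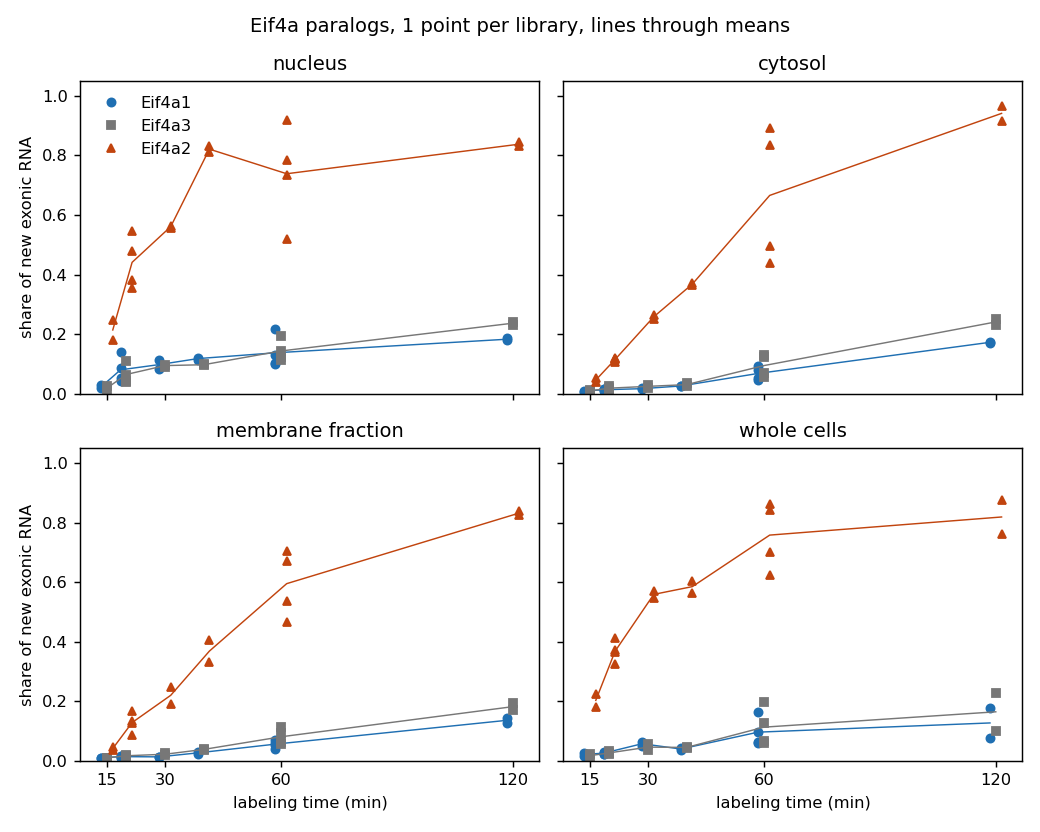
Share of new exonic RNA of Eif4a1, Eif4a3 and Eif4a2 over labeling time in minutes, 1 panel per fraction, with a point per library, lines through the means and a linear axis from 0. Eif4a2 lies above Eif4a1 and Eif4a3 in 16 of 16 libraries of each fraction.

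The next comparison followed new mRNA from nucleus to cytosol within 60 min. The share of new RNA was lower in the cytosol for 29 of 63 genes, higher for none and not called for 34, against 20.9% of all genes called either way, 0.801% higher and 20.1% lower. The median log2 ratio was -1.01, against -0.67 over all genes, and it was -1.08 for Eef and Eif3 genes and -1.01 for the other Eif genes. Eef1d had shares of 0.197, 0.132, 0.124 and 0.100 in the nucleus and 0.0237, 0.0208, 0.0484 and 0.0420 in the cytosol in replicates 3 to 6. The nuclear and cytosolic values did not overlap, and the log2 ratio was -2.04 (SE 0.42, adjusted p = 0.00148 by edgeR's quasi-likelihood test).

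Of the 6 Eef1 and Eef2 factors 5 were lower in the cytosol, as were 6 of 14 Eif3 subunits and 4 of 5 Eif2b subunits. Eif3g, Eef1b2, Eif3f and Eif3b had -1.79, -1.72, -1.54 and -1.43. At the other end Eif3a had -0.01 (SE 0.34), Eif4g1 0.17 (SE 0.42), Eif2ak3 0.77 (SE 0.40) and Eif5a2 0.93 (SE 0.48), and none of these passed. For Eif3a the nuclear shares of 0.269, 0.140, 0.224 and 0.194 overlapped the cytosolic 0.162, 0.142, 0.278 and 0.240.

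The number of calls depended on the libraries used, over all genes as well. Without replicate 3, 2 of the 63 genes were lower in the cytosol (3.25% of all genes), and the median log2 ratio was -0.71 over the 63 genes and -0.43 over all genes. Calls of Eef1a1, Eef2, Eif3f, Eif3b and Eif3k were then lost, while Eef1d stayed called. Leaving out 1 replicate at a time, the log2 ratio stayed between -1.13 and -0.72 for Eef1a1, between -1.26 and -0.91 for Eef2, between -1.72 and -1.17 for Eif3f, between -1.62 and -1.12 for Eif3b and between -1.66 and -0.97 for Eif3k. Without replicate 4 there were 14 lower (7.69% of all genes), within replicates 3 and 4 there were 55 (55.3%), and within replicates 5 and 6 there were 11 lower (7.45%) and 2 higher (3.27%). With the replicate as a block, since the fractions come from the same culture, 47 were lower (43.2% of all genes) and 2 higher (2.26%), and with shares scaled to the library median 19 were lower and 10 higher (2965 higher and 1917 lower over all genes, in place of 98 and 2464).

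Between membranes and cytosol the shares differed little. Only Eif2ak3 was lower at membranes among the 63 genes, and none was higher, against 5.16% of all genes called either way, 0.0164% higher and 5.14% lower. The median log2 ratio was -0.13 over the 63 genes and -0.10 over all genes. Eif2ak3 had shares of 0.617, 0.512, 0.792 and 0.799 in the cytosol and 0.221, 0.195, 0.308 and 0.262 at membranes in replicates 3 to 6. Each cytosolic share was above each membrane share (log2 ratio -1.47, SE 0.40, adjusted p = 0.0212 by edgeR's quasi-likelihood test). The call was lost without replicate 3, 5 or 6, while the log2 ratio stayed between -2.37 and -1.26 over all alternatives.

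Introns show pre-mRNA in the nucleus. At 20 min the share of new RNA was higher in introns than in exons of the same nuclear libraries for 62 of 63 genes, lower for none and not called for Eef1akmt3 at -0.08 (SE 0.57), against 85.4% of 11282 genes called either way, 85.3% higher and 0.106% lower. Eif3j2 and Eif4e3 were not in this fit. The median log2 ratio was 2.94 over the 63 genes and 2.05 over all genes, and it was 3.20 for Eef and Eif3 genes and 2.49 for the other Eif genes. By group the medians ran from 3.67 for the Eif3 subunits and 3.07 for the Eef1 and Eef2 factors to 2.27 for the enzymes that modify elongation factors.

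Eef1a1 introns had shares of 0.906, 1.04, 1.04 and 1.04 at 20 min in replicates 1 to 4, while its nuclear exons had 0.0591, 0.0623, 0.150 and 0.0877. Intronic RNA of Eef1a1 was thus nearly all new while the exonic RNA of the same libraries was mostly older (log2 ratio 3.49, SE 0.33). Eif3e introns had 0.200, 0.275, 0.458 and 0.387 and its exons 0.0104, 0.00761, 0.0295 and 0.0227, at 4.23 (SE 0.46) the highest ratio of the 63 genes. Eif3h, Eif3c and Eif3k followed at 4.21, 4.13 and 4.08.

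Eif4a2 had the lowest called ratio at 0.78 (SE 0.28), with intronic shares of 0.648, 0.731, 0.848 and 0.800 and exonic shares of 0.356, 0.381, 0.547 and 0.480. Introns and exons did not overlap, but the call was lost without replicate 2 and without replicate 4. Eif5, which activates GTP hydrolysis by eIF2, was next at 1.05 (SE 0.34). Over labeling time the intronic median of the factor genes was above that of all genes in 15 of 16 nuclear libraries (10380 genes, 61 of them factor genes). At 15 min it was 0.202 and 0.186 against 0.144 and 0.128. The intronic median of Eef and Eif3 genes was below that of the other Eif genes in 14 of 16 libraries, and the intronic median of the factor genes was above their exonic median in 16 of 16.

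**Figure D5:**
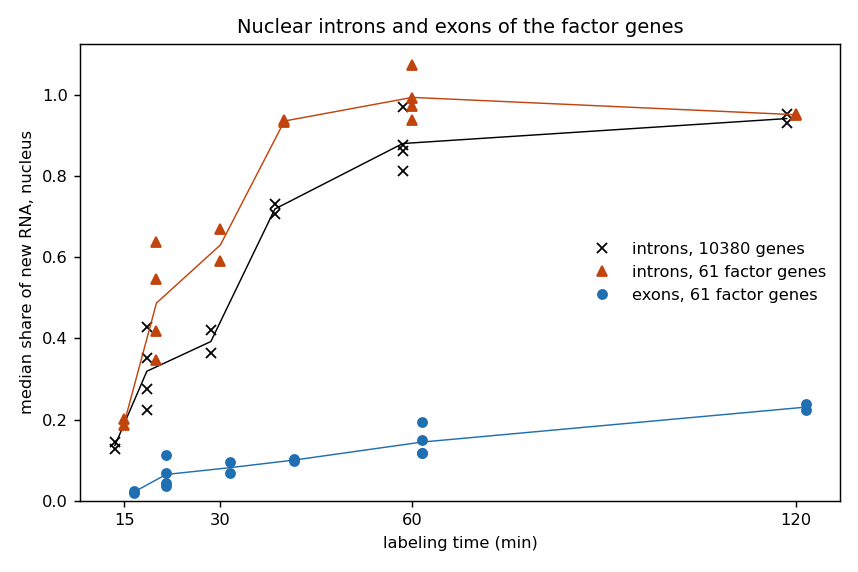
Median share of new RNA in the nucleus over labeling time in minutes, for introns of 10380 genes, introns of 61 factor genes and exons of the same 61 genes, with a point per library and lines through the means. The intronic median of the factor genes lies above that of all genes in 15 of 16 libraries and above their exonic median in 16 of 16.

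Whole-cell levels were also compared between labeling times. Each library compared had been labeled, so the effect of 4sU itself could not be read from these comparisons. By the labels, 20 min had 500 µM and 60 min had 100 µM, so time and labeled dose changed together between them. Few libraries stood on each side, so an absence of calls does not show that levels were stable. None of the 65 genes was called between 60 and 20 min in replicates 3 and 4 or between 120 and 60 min in replicates 5 and 6, and none of 16701 genes was (0.0%). At an unadjusted p under 0.05 there were 780 and 113 genes, and DESeq2 called none and had 644 and 92 such genes. With the replicate as a block none was called between 60 and 20 min, and 1 gene was higher and 40 were lower between 120 and 60 min. With no filter on low counts 10 were higher and 39 lower in the first comparison and 1 was higher and 52 lower in the second, with none of the 65 genes among the calls of either alternative. Of the factor genes Eif4a2 was the one with an unadjusted p under 0.05, at a log2 ratio of -0.62 (SE 0.26) between 60 and 20 min with an adjusted p of 0.934 by edgeR's quasi-likelihood test. The median log2 ratio of the 65 genes was 0.12 and -0.10 in these comparisons, and 0.00 over all genes in both. Between 120 and 60 min the median of the 65 genes was -0.23 without replicate 6 and 0.01 without replicate 5. This comparison holds the whole-cell libraries of replicate 6, for which an exchange of labels was not tested.

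Other genes of translation were read from a list of 34 (termination and recycling factors, poly(A)-binding proteins and partners, hypusine and diphthamide enzymes, mTOR signaling and helicases). In the nucleus 14 of the 34 were lower than in the cytosol and 4 were higher (31.4% and 34.2% of all genes), led downward by Tpt1, a TOP mRNA, at -2.09 and Dph3, a diphthamide enzyme of eEF2, at -2.08, and upward by Larp4, a poly(A)-associated protein, at 1.86. In whole cells at 60 min 12 had a lower share than the median gene and 5 a higher one (27.7% and 30.6% of all genes). The lowest were Tpt1 at -2.08, Mcts1, a partner in recycling, at -1.74 and the poly(A)-binding protein Pabpc1 at -1.68, and the highest were the diphthamide enzyme Dph2 at 1.54, the ribosome rescue factor Pelo at 1.25 and the termination factor Gspt2 at 1.09.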

How the data were processed

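The authors aligned the reads to mm10 (GRCm38) with STAR 2.7.6 and counted them with HTSeq 0.11.1, per the study's methods and the submitters' processing notes, and deposited whole counts per gene, T and T2C counts per exonic and intronic region, conversion rates as a fraction from a binomial mixture model, and per-gene shares as a ratio. RSEM 1.3.3 is listed too. From these deposited counts shares were recomputed as T2C over T times the conversion rate and equalled the deposited ratio within 1.2e-13. Lines of the count files that name no gene held 30.4% to 48.8% of counts and were left out. Of 72 libraries 8 (120 min, replicates 3 and 4) were set aside. The study left out labeling at 500 µM beyond 60 min, and the labels give 100 µM for these 8, but their conversion rates were 8.83% to 12.2% against 3.26% to 3.96% in replicates 5 and 6 at 120 min, so their dose is uncertain.

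Counts were tested in R 4.3.3 with edgeR 4.0.16 (TMM, filterByExpr, quasi-likelihood) over 15576 genes of nucleus, cytosol and membrane fraction and 16701 genes of whole cells. T2C counts were tested likewise with the log of T times conversion rate as offset, over genes with at least 400 T in each library. Calls needed a Benjamini-Hochberg adjusted p under 0.05 and an absolute log2 ratio over 0.5. DESeq2 1.42.0, limma 3.58.1 on log2(share + 0.01), other T minimums of 100 and 1000, other scalings, a replicate block, other times and leaving out replicates were the alternatives. With 200 genes changed by 1 on the log2 scale, tests on simulated data recovered 172 for nucleus against cytosol (15423 genes, 4 false calls), 181 for the share in cytosol against nucleus (12230 genes, 8 false) and 195 for the whole-cell relative share (12230 genes, none false). The simulated libraries were independent, without shifts between replicates, and simulated T2C counts had the same fixed spread for every gene. These recoveries therefore do not measure power or false calls in the real libraries.

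Fractions of one replicate and time come from the same culture per the study's methods, and deviations of same-numbered samples correlated at 0.0966 to 0.571 (nucleus and cytosol) and 0.732 to 0.809 (membrane and cytosol) for levels, and at 0.0820 to 0.143 for shares. Replicates were passaged and labeled separately per the study's methods. Gene reads per library are given with the results, and standard errors cover counting error and the spread between libraries. The main fits of levels took libraries of the same replicate as independent, which can make these standard errors too small.

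Genes eligible for naming were every Eef and Eif3 gene, the 3 highest and 3 lowest other genes of each comparison, paralog sets and up to 3 called genes per direction of the pathway list. Eif1a, Eif1ax and subunits of eIF2, eIF2B and the cap complex outside this rule were named after their values were seen. The genes, the lists and the tests were chosen with earlier results of these data known. Sequences are from RefSeq (GRCm38.p6).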

Additional observations from a re-analysis of the deposited data

Results flagged for a closer look

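Over 504 groups of 4 libraries (gene, fraction and time of 20 or 60 min), 15 (2.98%) held a library whose gap to the other 3 exceeded Dixon's 95% critical value, and chance alone marks about 1 in 20 groups. In the nucleus at 60 min 7 of 8 such cases were replicate 3 above the other replicates. These were Eef1b2 with a share of 0.218, Eef2kmt with 0.206, Eif2b3 with 0.249, Eif3c with 0.128, Eif3h with 0.121, Eif3l with 0.177 and Eif5b with 0.189, and the eighth was Eif4ebp2, where replicate 4 was low at 0.135. Nuclear libraries of replicate 3 also stood apart in the level data, with a correlation of 0.0966 between their deviations and those of the cytosol, and the cause was not tested.

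The remaining cases were spread over fractions. Eif2s3y in the nucleus at 20 min was high in replicate 1 at 0.0309 on few T2C counts. In the cytosol at 20 min, Eef1akmt1 was high at 0.0247 and Eif4enif1 high at 0.0340 in replicate 4, and Eif1ad was low at 0.0266 and Eif2b3 low at 0.00674 in replicate 2. Eif5a2 in the membrane fraction at 20 min was high in replicate 4 at 0.103. Eif2b3 in whole cells at 60 min was high in replicate 6 at 0.222, the library whose median share over all genes was also high at 0.374.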

How the results depend on the processing

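Of the alternative values of counts and group medians 233 stayed close to the value given and 30 moved, and of those of single genes 1673 kept their call, 133 lost it and 12 turned direction. For membrane against cytosol, library totals without TMM gave 1 gene higher and 47 lower (21.0% and 46.4% of all genes). No filter on low counts gave 12 lower (4.35%). Replicates 1 and 2 alone gave 6 lower (8.74%), and replicates 5 and 6 alone gave 13 lower (7.62%). Leaving out 1 replicate gave 12 to 22 lower (9.77% to 13.1%). Against the median gene at 20 min, 25 genes were lower in the cytosol (10.8% of all genes) and 21 lower at membranes (11.3%). There were 11 higher in the nucleus (28.4%), and 9 higher and 26 lower in whole cells (29.4% and 16.9%). Lower calls over all genes were thus also fewer than in the main fit (31.9% in cytosol, 31.4% at membranes, 27.7% in whole cells). At the labeling time of the main fit, replicates 3 and 4 alone gave 7 higher in whole cells (29.3%). For the share in cytosol against nucleus, scaling to the library median gave 10 higher and 19 lower (24.2% and 15.7% of all genes). The replicate block gave 2 and 47 (2.26% and 43.2%), and replicates 5 and 6 alone 2 and 11 (3.27% and 7.45%). Replicates 3 and 4 alone gave 55 lower (55.3%), as did 20 min (60.0%). Leaving out 1 replicate gave 2 to 31 lower (3.25% to 24.6%). For membrane against cytosol shares, scaling gave 3 higher and 2 lower (5.45% and 9.22% of all genes). Replicates 5 and 6 alone gave 2 lower (9.38%), and leaving out 1 replicate 0 to 1 (1.46% to 4.81%). Pooling counts over genes moved the log2 ratio of Eef and Eif3 over other genes to -1.14 in the nucleus and -1.22 in whole cells. The replicate block kept the other counts within 1.5 times. For levels it joined all labeling times of a replicate, so no level fit paired the fractions by culture. The causes of these moves were not tested.

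Directions turned for the nucleus against cytosol level of Eef2 (0.25) and Eif3b (0.039) within replicates 3 and 4, and for the intron ratio of Eif5a2 (-0.19) within replicates 1 and 2. At 20 min they turned against the median gene for Eif2s3y at membranes (0.34), for Eef1a1 (0.28), Eef1b2 (0.13), Eif4a1 (0.062), Eif4ebp3 (-0.033), Eif5a (0.32) and Eif5a2 (0.20) in the nucleus and for Eif4ebp3 in whole cells (-0.45), and for Eif2s3y in cytosol against nucleus (0.21). Leaving out genes with unusual T per read, an alternative chosen after seeing the data, kept the group medians close. Depth limits Eif2s3y, whose T2C count fell to 1 in a library at 60 min.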
